A study of Rattus norvegicus with 3 samples.

Results

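The creatine kinase isoforms examined here were brain-type creatine kinase (Ckb), muscle-type creatine kinase (Ckm) and the sarcomeric mitochondrial form (Ckmt2). They were found as every probe set that the platform annotation assigns to 1 of these symbols alone. This gave 3 probe sets, 1 per gene, among 15866 probe sets other than controls and 10411 named genes. The cells were ventricular myocytes isolated from newborn rats and cultured for 48 h, and their total RNA was measured on Affymetrix rat arrays. The groups were cells cultured with 20 µM phenylephrine, an agonist of α1-adrenergic receptors, cells cultured with 1 µM PAMH, a compound for which the submitters list pyridine and 5-hydroxytryptamine among their keywords, and unstimulated cells. Each group had 1 array, so no value has a replicate check and no test could be made. The labels state neither a vehicle for the unstimulated cells nor how many animals or cultures each RNA came from, and the doses of the compounds differ, so the arrays are set side by side and not compared at matched dose.

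Creatine kinases pass a phosphate group between ATP and creatine, so that phosphocreatine holds a reserve from which ATP can be remade quickly beside the enzymes that use it. Ckb and Ckm are cytosolic and work as dimers, and in striated muscle Ckm replaces much of Ckb during development. Ckmt2 sits between the mitochondrial membranes, where it charges creatine with phosphate from newly made ATP. In the heart Ckm and Ckmt2 are the main forms, and a larger share of the B subunit is a textbook feature of fetal and hypertrophied myocardium.

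The upstream sequences of the 3 genes are shown for reference, and a link between them and the array signals was not tested. Each is the 250 bases before the annotated start in RefSeq's rat assembly GRCr8, and all 3 genes were matched by symbol. The windows are chr6:136553465-136553714 on the minus strand for Ckb, chr1:88189211-88189460 on the plus strand for Ckm and chr2:24845512-24845761 on the minus strand for Ckmt2. The Ckm window holds the start of the longest annotated extent of that gene, so part of it may be transcribed. Capitals mark every match on either strand to any of 6 motifs. These were the CCAAT box bound by NF-Y, the TATA box searched as TATAAA, the E-box of basic helix-loop-helix factors searched as CANNTG, the MCAT element of TEAD factors searched as CATTCC, the MEF2 consensus and the CArG box of serum response factor.
Ckb: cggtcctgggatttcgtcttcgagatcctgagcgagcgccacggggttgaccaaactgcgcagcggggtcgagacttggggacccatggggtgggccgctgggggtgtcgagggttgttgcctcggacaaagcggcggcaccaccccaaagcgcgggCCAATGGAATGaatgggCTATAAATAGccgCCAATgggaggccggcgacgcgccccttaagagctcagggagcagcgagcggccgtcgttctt
Ckm: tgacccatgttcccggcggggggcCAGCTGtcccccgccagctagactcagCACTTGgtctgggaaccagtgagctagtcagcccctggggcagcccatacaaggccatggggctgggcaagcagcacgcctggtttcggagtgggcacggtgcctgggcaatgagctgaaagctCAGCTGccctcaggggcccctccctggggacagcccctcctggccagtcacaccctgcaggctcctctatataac
Ckmt2: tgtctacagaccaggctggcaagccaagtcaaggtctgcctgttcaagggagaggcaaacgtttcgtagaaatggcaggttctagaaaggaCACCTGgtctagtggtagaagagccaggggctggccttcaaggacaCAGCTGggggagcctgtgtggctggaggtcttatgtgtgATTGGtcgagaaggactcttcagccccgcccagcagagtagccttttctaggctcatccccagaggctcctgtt

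The Ckb window held 2 matches to the CCAAT box, of which the first ran directly into a reverse-strand MCAT match, and a MEF2 match that overlapped the TATA box match 67 to 76 bases before the start. It held no E-box. The Ckm window held 3 E-boxes and none of the other motifs as searched. Its last bases, tatataac, are rich in T and A but do not match TATAAA. The Ckmt2 window held 2 E-boxes and 1 CCAAT box on the reverse strand. Over 33469 rat windows of the same length, 34.0% held a CCAAT box, 12.9% the TATA box, 65.5% an E-box, 12.1% the MCAT letters, 3.0% the MEF2 consensus and 1.5% the CArG box, which none of the 3 held. The GC content was 64.8% for Ckb, 65.6% for Ckm and 55.6% for Ckmt2, against a median of 51.2% over all windows. These are matches of letters only, and the muscle enhancer known from the mouse Ckm gene lies further upstream than the window.

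Signals were compared after each array had been multiplied by 1 factor that made the medians over all probe sets other than controls equal. The factors were 1.024 for the phenylephrine array, 1.044 for the PAMH array and 0.938 for the unstimulated array. On the deposited values the medians differed by a log2 ratio of -0.13 for phenylephrine and -0.15 for PAMH against unstimulated, and the ratios below are relative to that shift. After trimming 2% of probe sets at each end, the deposited intensities had a mean of 250.1 on every array, so the deposited values already share a common mean and the median scaling replaces it. Signals under percentile 40 of all scaled values, an intensity of 76.1, were treated as below a floor, and ratios were formed between arrays that both reached it. The 3' to 5' ratio of the actin control, a sign of RNA integrity, was 1.44 with phenylephrine, 1.54 with PAMH and 1.72 without stimulus, and that of Gapdh was 1.07, 1.01 and 1.04 on the same arrays. As a technical yardstick, the log2 ratio varied between probe sets of the same gene by an SD of 0.27 in the phenylephrine comparison with unstimulated cells (864 genes), 0.29 in the PAMH comparison with them (867 genes) and 0.23 between PAMH and phenylephrine (866 genes). This spread contains no variation between cultures.

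Ckb was the isoform that differed between the arrays. Its scaled intensity was 700.7 with phenylephrine, 534.2 with PAMH and 143.9 in unstimulated cells. Both stimulated arrays were therefore well above the unstimulated one, whose signal was itself nearer to the floor. The signal was 4.87-fold higher with phenylephrine (log2 ratio 2.28) and 3.71-fold higher with PAMH (log2 ratio 1.89). Within its array the Ckb probe set stood at percentile 89.4 of all probe sets with phenylephrine, at 85.4 with PAMH and at 57.1 without stimulus. Ckb had the rank 8 from the highest ratio among 6571 genes with phenylephrine and the rank 9 among 6549 genes with PAMH. Both ratios use the same unstimulated array, so they share any deviation of that array. Among the 10 classes of genes by mean signal, the one with Ckb in it had medians of 0.08 for phenylephrine and 0.10 for PAMH on the log2 scale. From percentile 5 to percentile 95 its genes ran from -0.55 to 0.83 with phenylephrine and from -0.50 to 0.75 with PAMH, and Ckb lay above both ranges.

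Ckm, the isoform bound in part at the M-line of the sarcomere, varied little. Its scaled intensity was 2218.9 with phenylephrine, 2614.5 with PAMH and 2520.1 in unstimulated cells, which is percentile 97.2, 97.6 and 98.1 of the probe sets on those arrays. Its phenylephrine log2 ratio was -0.18 and its PAMH one 0.05, both smaller than the SD between probe sets of a gene. With phenylephrine it was negative under every scaling examined, with a lowest value of -0.46 after quantile normalization. With PAMH it had no settled direction, being -0.29 after quantile normalization and -0.27 after cyclic loess. Genes as bright as Ckm tended to have positive ratios: the brightest class had a median of 0.24 with phenylephrine and 0.32 with PAMH, and Ckm lay below both medians but between percentiles 5 and 95 of the class, which ran from -0.26 to 1.24 and from -0.22 to 1.14.

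Ckmt2 also stayed close to its unstimulated signal. It measured 396.6 with phenylephrine, 348.4 with PAMH and 356.4 without stimulus. The phenylephrine log2 ratio was 0.15 and the PAMH one -0.03, again within the SD between probe sets of a gene. In the order of ratios Ckmt2 stood at 2620 of 6571 genes with phenylephrine and at 4232 of 6549 genes with PAMH, in the broad middle of the array.

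**Figure D1:**
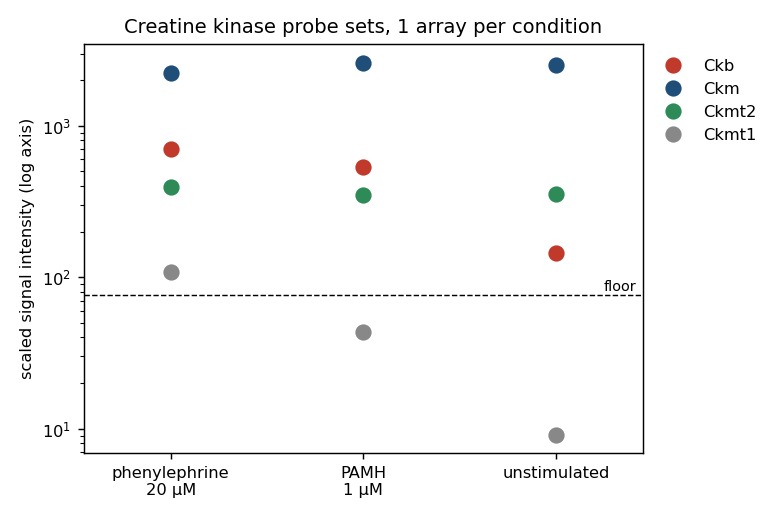
Scaled signal intensity (log axis) of each creatine kinase probe set on the phenylephrine, PAMH and unstimulated arrays, 1 point per array; the dashed line is the floor of 76.1. Ckb stands at 700.7, 534.2 and 143.9 on these arrays, while Ckm and Ckmt2 lie nearly level and Ckmt1 is above the floor on the phenylephrine array alone.

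At 2-fold, 1 of the 3 isoforms was higher with phenylephrine, where 2.62% of 6571 genes were, and 1 of 3 with PAMH, where 2.05% of 6549 genes were. In each case this was Ckb. None was at least 2-fold lower, as 0.761% of genes were with phenylephrine and 0.794% with PAMH. The split of calls depended on the scaling: it was 172 genes higher and 50 lower with phenylephrine and 134 and 52 with PAMH, but 132 and 92 with phenylephrine and 75 and 92 with PAMH on the deposited intensities. Ckb lay above 2-fold under all 7 alternatives that apply to it, with log2 ratios from 1.95 to 2.28 for phenylephrine and from 1.59 to 1.89 for PAMH.

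Between the stimulated arrays the isoforms differed less. Ckb was lower with PAMH than with phenylephrine by a log2 ratio of -0.39, a 1.31-fold difference that exceeded the SD of 0.23 between probe sets, did not reach 1.5-fold and lay within percentiles 5 to 95 of its signal class (-0.42 to 0.39). It stood at 486 from the lowest of 6593 genes. Ckm had a log2 ratio of 0.24, just above that SD and within the range of its own class (-0.27 to 0.35), and Ckmt2 had -0.19. None of the 3 reached 1.5-fold in either direction, where 1.93% of genes were higher and 2.67% lower with PAMH than with phenylephrine, and none reached 2-fold, where 0.197% were higher and 0.364% lower.

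The balance of isoforms within an array does not depend on the factor of that array, because both signals carry it. It is a ratio of signals from different probe sets, which bind their targets unequally, so its level is not a ratio of molecules and only its shift between arrays is read. The signal of Ckb over that of Ckm had a log2 value of -1.66 with phenylephrine, -2.29 with PAMH and -4.13 in unstimulated cells. Put the other way, the Ckm signal was 3.17 times that of Ckb with phenylephrine, 4.89 times with PAMH and 17.51 times without stimulus. The Ckb signal was 24.0% of the summed Ckb and Ckm signal with phenylephrine, 17.0% with PAMH and 5.40% without stimulus. These are shares of signal and not of molecules. The balance lay 5.53-fold further toward Ckb with phenylephrine (a log2 shift of 2.47) and 3.58-fold with PAMH (1.84) than in unstimulated cells. Between PAMH and phenylephrine it shifted by -0.63, with Ckb lower and Ckm slightly higher with PAMH.

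Ckb over Ckmt2 had a log2 signal ratio of 0.82 with phenylephrine, 0.62 with PAMH and -1.31 without stimulus. This balance too lay further toward Ckb on both stimulated arrays. The shift was 2.13 with phenylephrine and 1.93 with PAMH against unstimulated, and -0.20 between PAMH and phenylephrine. For the forms that dominate in adult heart, Ckm over Ckmt2 had a log2 ratio of 2.48 with phenylephrine, 2.91 with PAMH and 2.82 without stimulus. Its shift was -0.34 with phenylephrine and 0.09 with PAMH against unstimulated, smaller than those of both balances with Ckb, but between PAMH and phenylephrine it was 0.42, larger than that of Ckb over Ckmt2. The PAMH shift of Ckm over Ckmt2 against unstimulated had no settled direction, being -0.16 after quantile normalization and -0.14 after cyclic loess. Over the alternatives the shift of Ckb over Ckm lay between 2.13 and 2.70 with phenylephrine and between 1.54 and 2.13 with PAMH.

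**Figure D2:**
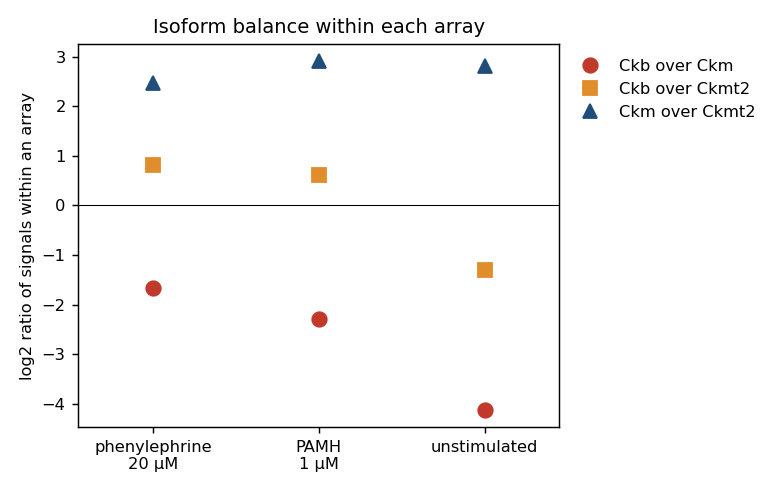
The log2 ratio of the signals of 2 isoforms within each array, for the phenylephrine, PAMH and unstimulated arrays. Ckb over Ckm runs at -1.66, -2.29 and -4.13 and Ckb over Ckmt2 at 0.82, 0.62 and -1.31, while Ckm over Ckmt2 stays between 2.48 and 2.91.

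The fourth creatine kinase gene, Ckmt1, encodes the ubiquitous mitochondrial form and is no member of the group above. Its probe set had 108.5 with phenylephrine, 43.2 with PAMH and 9.1 without stimulus. It was above the floor on the phenylephrine array alone, where it was at least 1.43-fold higher than on either of the others, and the signals below the floor have no order.

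The isoforms were then placed beside 29 genes that supply creatine, move adenine nucleotides and phosphate across the mitochondrial membranes, or sense and convert adenine nucleotides. Of these, 25 had a probe set with 1 symbol, and 20 could be measured in the phenylephrine comparison. With phenylephrine 4 of 20 were at least 1.5-fold higher and 3 lower, where 8.90% and 4.54% of all genes were, and the list's median log2 ratio was 0.19 against 0.07 over all genes. With PAMH 5 of 21 were higher and 3 lower, where 9.31% and 4.17% of all genes were, with a median of 0.37 against 0.10 over all genes. These medians were -0.08 with phenylephrine and 0.00 with PAMH after quantile normalization, so the list had no settled direction. Over all genes the 1.5-fold calls split into 585 higher and 298 lower with phenylephrine and 610 and 273 with PAMH, but into 396 and 519 and into 350 and 515 on the deposited intensities.

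The genes that make and import creatine did not move together. Gatm, which encodes the enzyme of the first step of creatine synthesis, measured 209.4 with phenylephrine, 245.2 with PAMH and 110.9 without stimulus, which is 1.89-fold and 2.22-fold higher with the 2 compounds. Gamt, which encodes the methyltransferase of the second step, measured 71.1 with phenylephrine, 126.7 with PAMH and 275.2 without stimulus. It was below the floor with phenylephrine and so at least 3.62-fold lower there, and it was 2.17-fold lower with PAMH. The sign of Gatm with both compounds and that of Gamt with PAMH held under every scaling and offset examined, while Gamt with phenylephrine has a bound alone. Slc6a8, the creatine transporter of the plasma membrane, measured 270.6, 473.6 and 471.7 on the phenylephrine, PAMH and unstimulated arrays by its brighter probe set. The phenylephrine log2 ratio of this probe set was -0.80 and its PAMH ratio 0.01. Its second probe set had log2 ratios of 0.06 and 0.39, so the probe sets of this gene disagree about phenylephrine. In the comparison of PAMH with phenylephrine Slc6a8 was 1.75-fold higher (log2 ratio 0.81), although the mean of both probe sets was below 1.5-fold, and Gamt was at least 1.66-fold higher, being below the floor with phenylephrine.

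The carriers that connect mitochondrial ATP with the cytosol kept their direction less well. Slc25a4, the adenine nucleotide translocase of heart and skeletal muscle, measured 9236.4 with phenylephrine, 10845.0 with PAMH and 7911.1 without stimulus. Slc25a5, the more widely expressed translocase, measured 5497.9, 6668.6 and 4667.9 on the same arrays. Their log2 ratios lay between 0.22 and 0.51, but those of Slc25a4 reached -0.15 with phenylephrine and -0.04 with PAMH under other scalings, and that of Slc25a5 reached -0.09 with phenylephrine. The mitochondrial phosphate carrier Slc25a3 was 1.57-fold higher with PAMH and 1.44-fold higher with phenylephrine, and its PAMH log2 ratio of 0.65 was as low as 0.18 under another scaling.

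Among genes of adenine nucleotide conversion, the nucleoside diphosphate kinase gene Nme1 was 2.11-fold higher with phenylephrine and 1.51-fold higher with PAMH, and Nme2 was 1.57-fold and 1.44-fold higher. Nme1 with PAMH (log2 ratio 0.59) lay between 0.43 and 0.57 under all other scalings and offsets, below 1.5-fold, and Nme2 with phenylephrine was as low as 0.35. Adk, which encodes adenosine kinase, was 1.57-fold higher with phenylephrine and 1.73-fold higher with PAMH, with a second probe set at log2 ratios of 1.11 and 1.10, but the lowest values under other scalings were 0.45 and 0.53, below 1.5-fold. The AMP deaminase gene Ampd3 was 1.77-fold lower with phenylephrine and 1.97-fold lower with PAMH. Its signals there, 112.0 and 100.2, were not far above the floor, and with a floor at percentile 50 it had no PAMH ratio. Subunits of AMP-activated protein kinase, which senses a fall in cellular energy, went different ways. The catalytic subunit gene Prkaa2 was 1.69-fold higher with PAMH, the regulatory subunit gene Prkab1 was 1.54-fold lower with phenylephrine, and Prkag2 was 2.03-fold lower with PAMH. Prkaa2 had 0.52 with PAMH at its lowest scaling and Prkab1 -0.56 with phenylephrine under an offset of 50, both short of 1.5-fold. Prkag2 measured 497.9 with phenylephrine, 258.5 with PAMH and 525.5 without stimulus. The low value was that of the PAMH array, and Prkag2 was also 1.93-fold lower with PAMH than with phenylephrine. For Ak3, a mitochondrial adenylate kinase, the phenylephrine log2 ratio was 0.17 and the PAMH one 0.40.

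The shift of the Ckb over Ckm signal ratio was set beside 13 other pairs of related genes. These were mostly a fetal, brain-type or widely expressed form over an adult muscle form, and 11 had both genes above the floor on all 3 arrays. The pairs were chosen with earlier results of these data known. With phenylephrine 8 of 11 pairs shifted toward the first-named form and 3 away from it, and with PAMH 8 shifted toward it and 2 away, with Hk1 over Hk2 at 0.00. At 1.5-fold the counts were 4 toward and 3 away with phenylephrine and 5 toward and 2 away with PAMH. They rest on the brightest probe set of each gene. The median shift was 0.25 with phenylephrine and 0.15 with PAMH, against 2.47 and 1.84 for Ckb over Ckm. In each comparison with the unstimulated array only 1 pair had a larger upward shift, Casq1 over Casq2, the skeletal over the cardiac calsequestrin, at 3.22 with phenylephrine and 2.26 with PAMH.

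Contractile pairs went the same way as Ckb over Ckm by smaller amounts. The atrial and fetal light chain Myl4 over the ventricular Myl3 shifted by 2.03 with phenylephrine and 0.94 with PAMH. The β over the α myosin heavy chain, Myh7 over Myh6, shifted by 0.62 and 0.60, and slow skeletal over cardiac troponin I, Tnni1 over Tnni3, by 0.25 and 0.15. By the mean over probe sets the Myh7 over Myh6 shift was larger, at 1.18 and 1.10. Pairs of energy enzymes were split. The ubiquitous phosphoglycerate mutase over the muscle form, Pgam1 over Pgam2, shifted by 0.92 with phenylephrine and 1.32 with PAMH. Aldoc over Aldoa, the brain over the muscle aldolase, shifted the other way, by -3.01 and -2.39, as did the glucose transporters Slc2a1 over Slc2a4, by -0.94 and -1.11. Aldoc measured 89.0 with phenylephrine, near the floor of 76.1, and an offset of 50 brought that shift to -2.49. The probe sets of Slc2a4 disagreed, with log2 ratios of 0.78 and 1.04 for the one used and 0.05 and 0.54 for the other. By the mean over probe sets the transporter shift was -0.58 with phenylephrine, just below 1.5-fold, and -0.86 with PAMH. The enolases Eno1 over Eno3 shifted by -1.88 with phenylephrine and by 1.29 with PAMH. Lactate dehydrogenases (Ldha over Ldhb, 0.09 and 0.07) and translocases (Slc25a5 over Slc25a4, 0.01 and 0.06) barely shifted, and Hk1 over Hk2 had 0.51 with phenylephrine. The sign of each of these shifts held under every scaling and offset examined, with the exception of Hk1 over Hk2 with PAMH, which ran from -0.22 to 0.17.

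**Figure D3:**
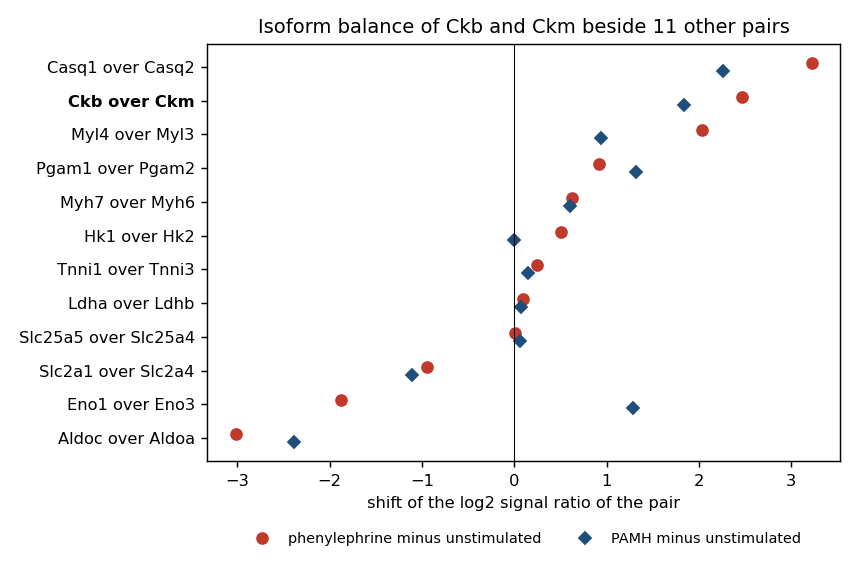
Shift of the log2 signal ratio of Ckb over Ckm and of 11 other isoform pairs, phenylephrine minus unstimulated (circles) and PAMH minus unstimulated (diamonds), both against the same unstimulated array. Ckb over Ckm stands at 2.47 and 1.84, behind Casq1 over Casq2 at 3.22 and 2.26, and Aldoc over Aldoa is furthest the other way at -3.01 and -2.39.

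The genes whose pair of ratios lay nearest to that of each isoform were found by Euclidean distance in log2 units over the 2 ratios against the unstimulated array, among 4826 genes above the floor on all 3 arrays with a mean signal above percentile 60. With 3 arrays this measures only how alike 2 ratios are. Nearest to Ckb was Tnfrsf12a, the receptor for the cytokine TWEAK, at a distance of 0.076, with ratios of 4.78-fold for phenylephrine and 3.53-fold for PAMH. Slc16a3, a lactate exporter, followed at 0.140, Enah, a regulator of actin filament growth, at 0.286, Myl4 at 0.396 and Mllt11 at 0.401. Tnfrsf12a was the only gene within 0.1 of Ckb. Within 0.1 of Ckm lay 196 genes, the nearest being Tmem129, Wac-ps1, Arpc4, Erbin and Eif2d. Within 0.1 of Ckmt2 lay 178, the nearest being Rbm18, Rpl24, Rbm15, Fbh1 and H2aj. These counts follow from the size of the ratios, since few genes have ratios as large as those of Ckb, and add nothing to them.

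**Figure D4:**
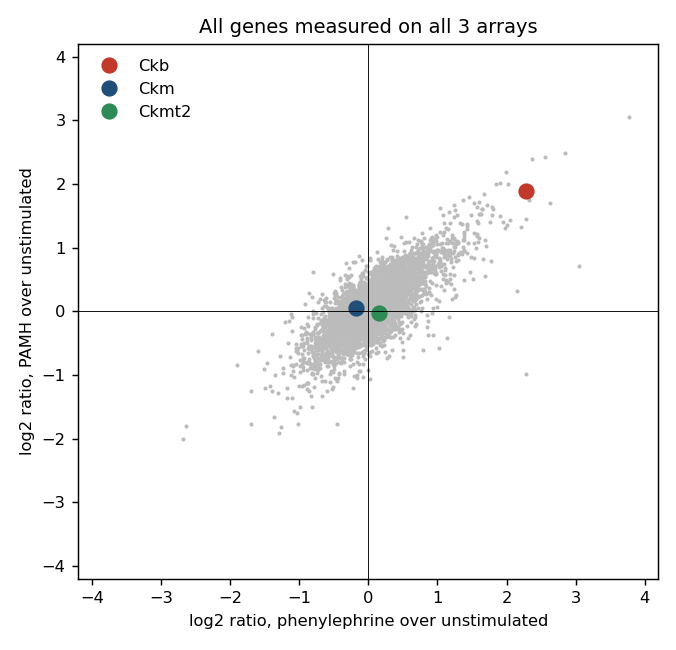
The log2 ratio of PAMH over unstimulated against that of phenylephrine over unstimulated for every gene measured on all 3 arrays (grey), with the creatine kinase isoforms in colour. Both axes share the unstimulated array, so a diagonal spread is built in; Ckb lies at 2.28 and 1.89, and Ckm (-0.18 and 0.05) and Ckmt2 (0.15 and -0.03) lie in the centre of the cloud.

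The cell label and the other cells such a culture could hold were examined through marker genes, because Ckb is also abundant in brain and smooth muscle. All 12 cardiac myocyte markers on the array were above the floor on every array. Their summed signals were 104466.8 with phenylephrine, 123885.8 with PAMH and 79808.2 without stimulus. At 1.5-fold, 4 of the 12 were higher with phenylephrine and 6 with PAMH, where 8.90% and 9.31% of all genes were, and none was lower. Nppa was 2.26-fold and 2.61-fold higher. With phenylephrine Myh6, Tnni3, Atp2a2 and Pln stood at 0.97 to 0.99 times unstimulated and Ryr2 at 0.83, so the sums do not stand for every marker. Of 9 smooth muscle markers, some of which immature cardiac myocytes also express, 8 were above the floor on all arrays and Lmod1 on none. Their summed signal was 14798.9 with phenylephrine, 12300.2 with PAMH and 6881.8 without stimulus, a ratio of 2.15 and 1.79 against unstimulated, beside 4.87 and 3.71 for Ckb. At 1.5-fold, 5 of the 8 were higher with phenylephrine and none was lower, where 8.90% and 4.54% of all genes were. With PAMH 4 were higher and 1 lower, where 9.31% and 4.17% of all genes were. The marker counts were made with the median scaling alone. Cnn1, which encodes calponin, measured 1795.1 with phenylephrine, 1396.2 with PAMH and 249.5 without stimulus, 7.20-fold and 5.60-fold higher and so further from unstimulated than Ckb. Acta2, the smooth muscle actin, was 2.44-fold higher with phenylephrine and 2.86-fold with PAMH, and Synpo2 2.60-fold and 2.24-fold. Myh11, the smooth muscle myosin heavy chain, was not among the higher ones, at 281.9 with phenylephrine, 178.6 with PAMH and 278.4 without stimulus. It was the 1 marker counted as lower with PAMH. Smtn, at 156.4, 175.5 and 200.4 on the same arrays, and Mylk, at 204.1, 168.2 and 251.0, were lower with both compounds by less than 1.5-fold. The part of smooth muscle cells in the Ckb result was not tested, and in RNA from a whole culture a larger share of cells of a type and more RNA per cell cannot be told apart.

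Of 9 neural and Schwann cell markers on the array, Uchl1, Syp and Eno2 were above the floor on all arrays, Gfap on the phenylephrine array at 91.2, and S100b, Mbp, Tubb3, Nefl and Snap25 on none. Their summed signal was 880.4 with phenylephrine, 866.8 with PAMH and 681.8 without stimulus. Of 8 skeletal muscle markers, Myh1 and Tnni2 were above the floor on all arrays, Myog on the PAMH and unstimulated arrays, and Myod1, Myh2, Myh4, Tnnt3 and Actn3 on none. The skeletal sum was 2575.0, 3265.0 and 1269.9 on the phenylephrine, PAMH and unstimulated arrays, most of it Myh1. Ckm, which skeletal muscle also expresses strongly, measured 2218.9, 2614.5 and 2520.1 on the same arrays. The skeletal calsequestrin Casq1, which is outside this list, measured 3481.5, 2120.0 and 255.0. The part of skeletal muscle cells in these signals was not tested. Fibroblast markers had lower sums with both compounds, at 7289.1 with phenylephrine and 5639.4 with PAMH against 9469.9 without stimulus. Of 8 above the floor on all arrays, 1 was at least 1.5-fold lower with phenylephrine, where 4.54% of all genes were. With PAMH 6 were, where 4.17% of all genes were. None was 1.5-fold higher, where 8.90% of all genes were with phenylephrine and 9.31% with PAMH. Thy1 went the other way, at 1.44-fold and 1.16-fold higher. The 3 endothelial markers on the array were below the floor throughout. Of the 5 macrophage markers, Aif1 and Cd74 were above it on all arrays, Csf1r on the phenylephrine and PAMH arrays, and Cd68 and Ptprc on none. Their sum was 325.4, 390.7 and 301.7 on the phenylephrine, PAMH and unstimulated arrays. Aif1 was 1.13-fold and 1.48-fold higher with phenylephrine and PAMH, while Cd74 stood at 0.66 and 0.70 times unstimulated.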

How the data were processed

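RNA of the cultured myocytes was measured on 3 arrays, 1 per group, and groups were taken from the sample titles. The authors deposited a linear signal intensity for every probe set on each array; which software made it is not stated by the labels, and the equal trimmed means show arrays that already share a common level, so the alternative without scaling keeps that level. Detection calls were not used here. Of 15866 probe sets other than 57 controls, 12783 carried 1 gene symbol, 312 several and 2771 none. The gene identifiers of 12748 of those with 1 symbol were found in the RefSeq rat table (GRCr8), from which current symbols were taken. Of several probe sets of 1 gene, the brightest on average stood for it. Each array was scaled to the mean of the 3 medians, and log2 ratios were formed at or above the floor at percentile 40. Where 1 array was below it, the brighter signal over the floor is given as a lower bound. Genes were counted at 2-fold and 1.5-fold. The scaling and counting code was tested on simulated data with known changes. With 1 array per group there is no test, and the number of arrays limits precision.

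Alternatives were the deposited intensities, scaling on percentile 75, quantile normalization and cyclic loess (limma 3.58.1 in R 4.3.3), offsets of 16 and 50, the mean over probe sets, no floor, and a floor at percentile 50. The rest was computed in Python 3.11.15 (pandas 2.3.3, numpy 2.4.6). The members, the gene lists, the isoform pairs and the markers were chosen with earlier results of these data known. The text names the 3 isoforms, listed energy genes past 1.5-fold or of stated role, every measured isoform pair, and the 5 nearest genes to each isoform.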

Additional observations from a re-analysis of the deposited data

How the results depend on the processing

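For 48 values, 378 pairs of a value and an alternative setting were compared. Of these, 325 stayed close to the value reported, within the SD between probe sets of a gene or, for counts, within 1.5 times. The other 53 moved, and none changed sign from a call. The 325 include pairs that could not move, so the count is no measure of stability. A factor per array cancels in the isoform balances, which are therefore fixed on the deposited intensities and with scaling on percentile 75. For Ckb, Ckm and Ckmt2 the mean over probe sets changes nothing, since each has 1 probe set. An offset of 50 shrank the log2 ratio of Ckb to 1.95 with phenylephrine and 1.59 with PAMH, the shift of Ckb over Ckm to 2.13 and 1.54, that of Ckb over Ckmt2 to 1.82 and 1.62, and the unstimulated balance of Ckb over Ckm to -3.73. After quantile normalization Ckm had -0.46 with phenylephrine and -0.29 with PAMH, and Ckb over Ckm shifted by 2.13 with PAMH; after cyclic loess Ckm had -0.27 with PAMH.

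The energy list's median was -0.08 with phenylephrine and 0.00 with PAMH after quantile normalization and 0.00 with PAMH after cyclic loess. Its higher members with phenylephrine numbered 2 on deposited intensities, after quantile normalization and after cyclic loess; with PAMH they numbered 3, 1 and 1 under the same settings. Between PAMH and phenylephrine 0 were higher with the mean over probe sets, and 2 higher and 2 lower without a floor.

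Counts over all genes moved most without a floor. With phenylephrine 672 genes were then 2-fold higher and 476 lower (1470 and 1094 at 1.5-fold), with PAMH 631 and 601 (1486 and 1213), and between PAMH and phenylephrine 440 and 568 (918 and 1106). On deposited intensities phenylephrine gave 92 genes 2-fold lower and 519 lower at 1.5-fold, and PAMH 75 higher and 92 lower at 2-fold and 350 higher and 515 lower at 1.5-fold. PAMH gave 86 genes 2-fold higher after quantile normalization and 85 after cyclic loess. With an offset of 50, 23 genes were 2-fold lower and 177 lower at 1.5-fold with phenylephrine, 30 and 158 with PAMH, and between PAMH and phenylephrine 2 were higher and 10 lower at 2-fold and 63 and 85 at 1.5-fold. That comparison had 4 genes 2-fold higher with an offset of 16 and 7 with the floor at percentile 50. No paired analysis was possible because each group has 1 array. Signals near the floor, such as that of Ckb in unstimulated cells and those of Ckmt1, limit what can be read, and leaving out a replicate could not be tried.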
